A study of Drosophila melanogaster with 16 samples.

Results

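The genes described here act in the endoplasmic reticulum (ER), the compartment where a cell makes the proteins that it secretes or inserts into membranes. They were taken by gene symbol from a list of 51 genes, and 45 of these were found among the 10459 genes of the expression table. The list was chosen with earlier results of these data known. The 45 comprise 18 genes of protein translocation and signal recognition, 7 of N-glycosylation, 11 of folding, 5 of ER-associated degradation and 4 of ER stress signalling. *Stt3A*, *Stt3B*, *shv*, *Sil1*, *Xbp1* and *Dad1* were not analysed here under those symbols. A later annotation gives *OstStt3*, *Gtp-bp* and *Ugt* the symbols *Stt3B*, *SrpRalpha* and *Uggt*, and the symbols of the table are used below.

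The samples were whole male third-instar larvae of *Drosophila melanogaster*, in 4 groups of 4 libraries each, which were *ERK7* mutant fasted, *ERK7* mutant fed, control fasted and control fed. Mutants carried *ERK7 1*, a null allele made with CRISPR/Cas9 and kept as a single line whose males are infertile, and controls came from a line of the same screen without a mutation in ERK7. Eggs were collected over 3 h, larvae were moved to fresh food at 24 h and again 48 h later, and then spent 6 h on 0.5% agarose in PBS (fasted) or on standard food (fed). The study's methods place this transfer at a later age than the labels do, and no value depends on which holds. ERK7 is an atypical MAP kinase, and the comparisons ask how its loss changes gene expression in each feeding state and the response to fasting. The number of larvae in a sequenced library is not stated (the study's methods state it for whole-larva qRT-PCR, with the same RNA kit), so p-values measure the spread between these libraries, which may be technical.

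A protein bound for the ER is recognized by the signal recognition particle (SRP) as it leaves the ribosome, and is handed by the SRP receptor to the Sec61 channel. There its signal peptide is cut off by signal peptidase and oligosaccharyltransferase adds a sugar tree that was built on a lipid carrier. Chaperones and disulfide isomerases fold the chain, a glucose tag on the sugar tree lets calnexin and calreticulin hold it, and chains that fail to fold are pulled out and degraded. Unfolded chains in the lumen are sensed by *Ire1*, *PEK* and *Atf6*, and in many cells the unfolded protein response that follows raises chaperone genes. In larvae, the fat body, salivary glands and midgut secrete large amounts of protein.

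Values are given as RPM, which here means reads relative to the library size after scaling by the trimmed mean of M-values (TMM). Log2 fold changes are on log2(RPM + 1), which understates the change of weakly expressed genes, with the standard error (SE). "Called" means a Benjamini-Hochberg adjusted p under 0.05 over all 10459 genes in limma, fitted to all 16 libraries. The libraries held 16482553 to 20601418 reads on the listed genes. The first principal component (44.4% of the variance) separated fasted from fed libraries and the second (36.2%) mutant from control libraries, and on the second component control fasted replicate 1 was the control library closest to the mutant ones. For that reason main results are also given without this library. Leaving out the control library nearest to the mutants favours wider genotype differences, so these values are no independent support for the main results. *Erk7* RNA was at 5.14 to 8.03 RPM in mutant fasted and 5.58 to 10.2 RPM in mutant fed larvae. Control fasted larvae had 1.83 to 9.73 RPM and control fed larvae 0.634 to 3.05 RPM. In limma it was higher in fed mutants than in fed controls (1.59 ± 0.37, adjusted p = 0.0023) and upon fasting in controls (0.96 ± 0.37, adjusted p = 0.031). Between fasted groups it was not called (0.46 ± 0.37, adjusted p = 0.33). Its RNA was thus not lower in mutants and gives no check of the genotype labels. The 16 measured testis markers summed to 146 to 204 RPM in mutant fasted and 137 to 192 RPM in mutant fed larvae, against 44.6 to 145 RPM in control fasted and 16.8 to 62.6 RPM in control fed larvae, with 11 called higher in fasted and 12 in fed mutants. The 5 fat body markers summed to 24820 to 31538 RPM in mutant fasted larvae, against 11637 to 13029 RPM in control fasted larvae, with 4 of 5 called higher and none of them at 0. Their sum was 104553 to 124772 RPM in mutant fed larvae, against 29691 to 49006 RPM in control fed larvae, with 3 of 5 called higher and 1 lower. Of 10 midgut markers, fasted mutants had 5 lower, and fed mutants had 1 higher and 2 lower. Of 7 salivary gland markers, fasted mutants had 1 higher and 2 lower, and fed mutants had 2 higher. Over all genes, 23.8% were called higher and 20.9% lower in fasted mutants, and 25.6% higher and 26.0% lower in fed mutants, and the counts of salivary gland markers and the fed counts of midgut markers were near or below these shares. In whole larvae, fewer cells of a type and less RNA per cell cannot be told apart, and the part of these tissue markers in the results below was not tested.

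**Figure D1:**
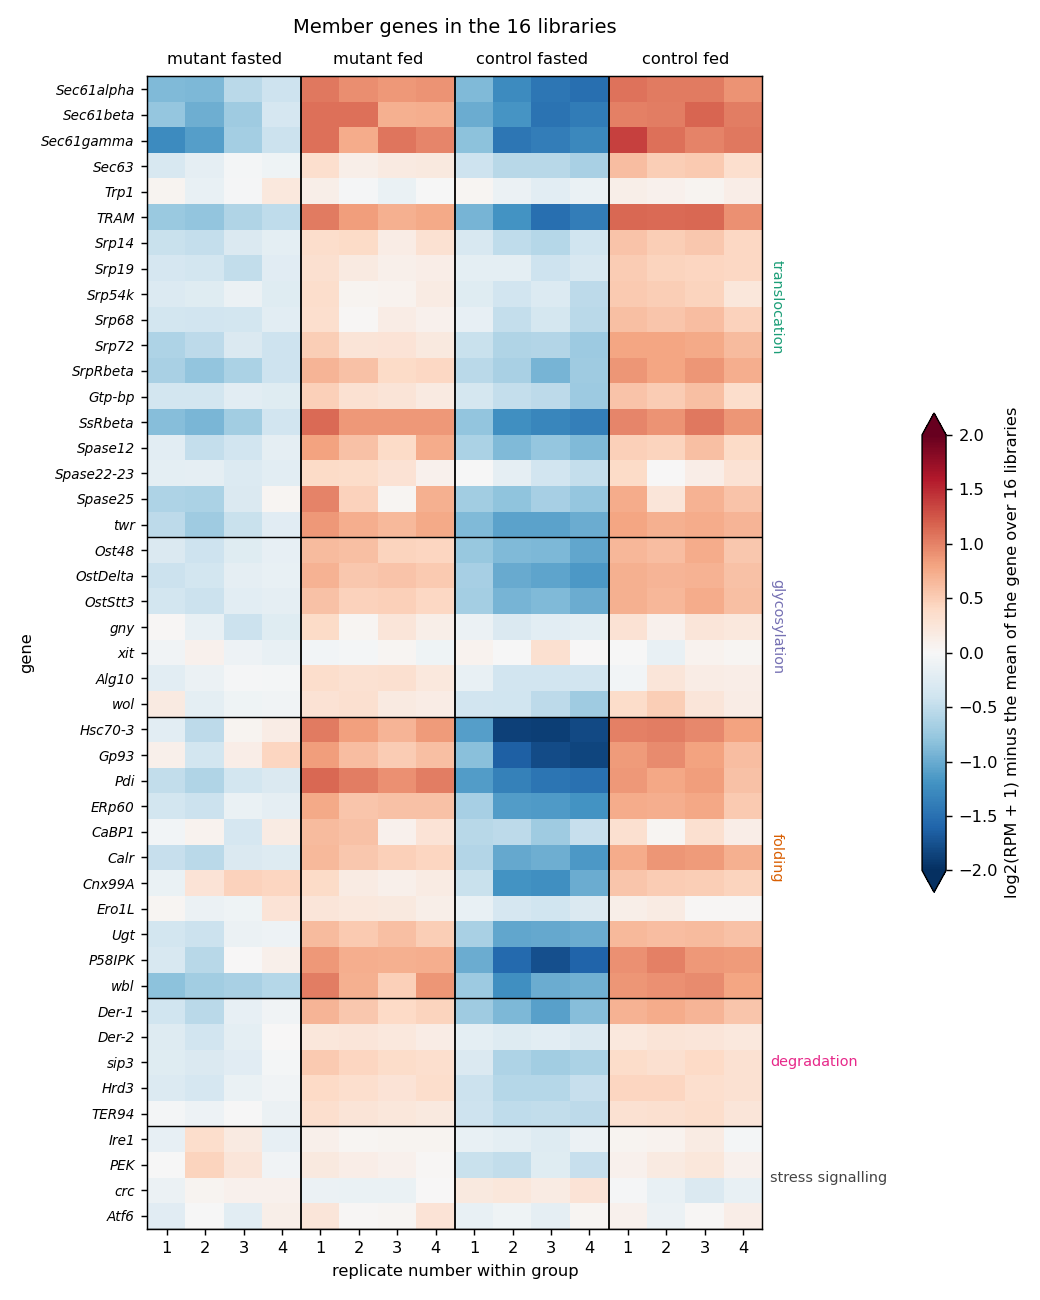
Level of the 45 genes in each library, as log2(RPM + 1) minus the mean of the gene over the 16 libraries, with genes ordered by step and replicates 1 to 4 within each group. The control fasted libraries are blue for nearly all genes, with crc the clearest exception, and the deepest blue lies in their replicates 2 to 4 in the folding genes. The mutant fasted libraries are blue for most genes, but Gp93, Hsc70-3, Cnx99A and PEK, among others, lie above their mean in some of them.

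Fasting lowered the RNA of nearly all these genes in both genotypes, and by less in the mutants. In mutants, 38 of 45 were lower in fasted than in fed larvae, none was called higher and 7 were not called, where 25% of all genes were called lower and 23.7% higher. No member was higher at an unadjusted p under 0.05 in limma either, nor in edgeR, DESeq2 or limma-voom on the recovered reads. In controls, 42 of 45 were lower in fasted larvae, 1 (*crc*) was higher and 2 (*xit* and *Atf6*) were not called, where 32.2% of all genes were called lower and 37.5% higher. The median log2 fold change upon fasting was -0.61 in mutants and -1.27 in controls, whereas the median over all genes was 0.0017 in mutants and 0.10 in controls. Some tissue markers were also called upon fasting. Of the 5 fat body markers, 4 were lower and 1 higher upon fasting in mutants and 5 were lower in controls, and of the 10 midgut markers, 3 were lower and 2 higher in mutants and 2 were lower and 5 higher in controls. Of the 16 testis markers, 7 were higher upon fasting in controls, while their sums overlapped between fasted and fed mutants, and of the 7 salivary gland markers, 1 was lower and 1 higher in mutants and 2 were lower and 3 higher in controls. Apart from the lower counts of the fat body markers, these marker counts were near or below the shares of all genes given above. The part of the tissue markers in the fasting results was not tested. Of the 45 genes, 37 were lower upon fasting in both genotypes. Another 5 (*Trp1*, *Cnx99A*, *Ero1L*, *Ire1* and *PEK*) were lower in controls and not called in mutants, and *Atf6* was lower in mutants and not called in controls. For *Trp1*, *Ero1L*, *Ire1* and *Atf6* the difference between the responses of the genotypes, described next, was not called, whereas for *Cnx99A* and *PEK* it was.

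The difference between the responses was tested itself, as the fasting response of mutants minus that of controls. It was positive for 41 of 45 genes and called for 27, all of them positive, where 18.2% of all genes were called positive and 13.7% negative. At an unadjusted p under 0.05 in limma 1 member (*crc*) was negative, and edgeR, DESeq2 and limma-voom called 0 negative. The median of the difference was 0.46 over the 45 genes and -0.035 over all genes. Without control fasted replicate 1 it was called positive for 31 genes and none was negative, with a median of 0.54. In the plot of the fasting change in both genotypes, most genes therefore lie above the line of equal change. The fed libraries of each genotype enter only 1 axis of that plot.

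**Figure D2:**
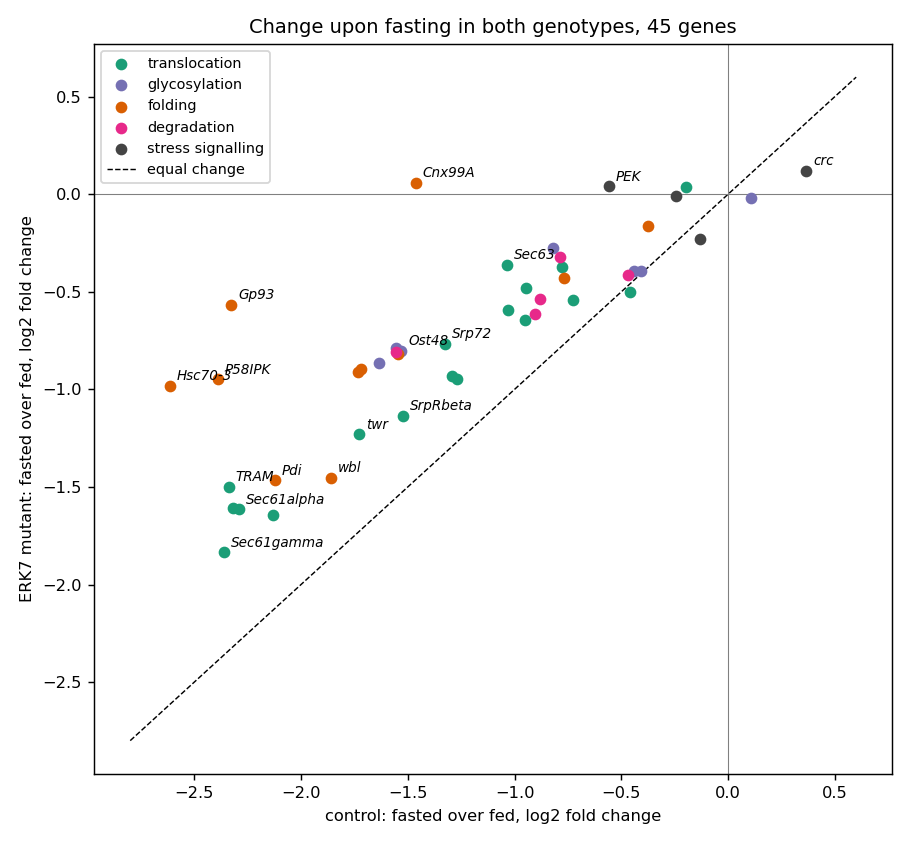
Log2 fold change of fasted over fed larvae in ERK7 mutants (vertical axis) against that in controls (horizontal axis), 1 point per gene, coloured by step, with a dashed line at equal change. Of the 45 points, 41 lie above the line, with Gp93, Hsc70-3, P58IPK and Cnx99A farthest from it.

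Between genotypes, more members were called in the fasted than in the fed state. Among fasted larvae, 29 of 45 were higher in mutants than in controls, 1 (*crc*) was lower and 15 were not called, where 23.8% of all genes were called higher and 20.9% lower. The median log2 fold change was 0.38 over the members and 0.0035 over all genes, and without control fasted replicate 1 the counts were 30 higher and 1 lower with a median of 0.45. Among fed larvae, 1 member (*Pdi*) was higher in mutants, 9 were lower and 35 were not called, where 25.6% of all genes were called higher and 26.0% lower, so the share of members called was below that of all genes. The median there was -0.08 over the members and -0.015 over all genes. The direction in fed larvae depended on the scaling, because 35 of 45 members were below 0 as deposited, 26 after centring each library on its median and 19 after quantile normalization, which called 6 members higher and 3 lower. Leaving out mutant fed replicate 3 left 4 members called lower in fed mutants.

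**Figure D3:**
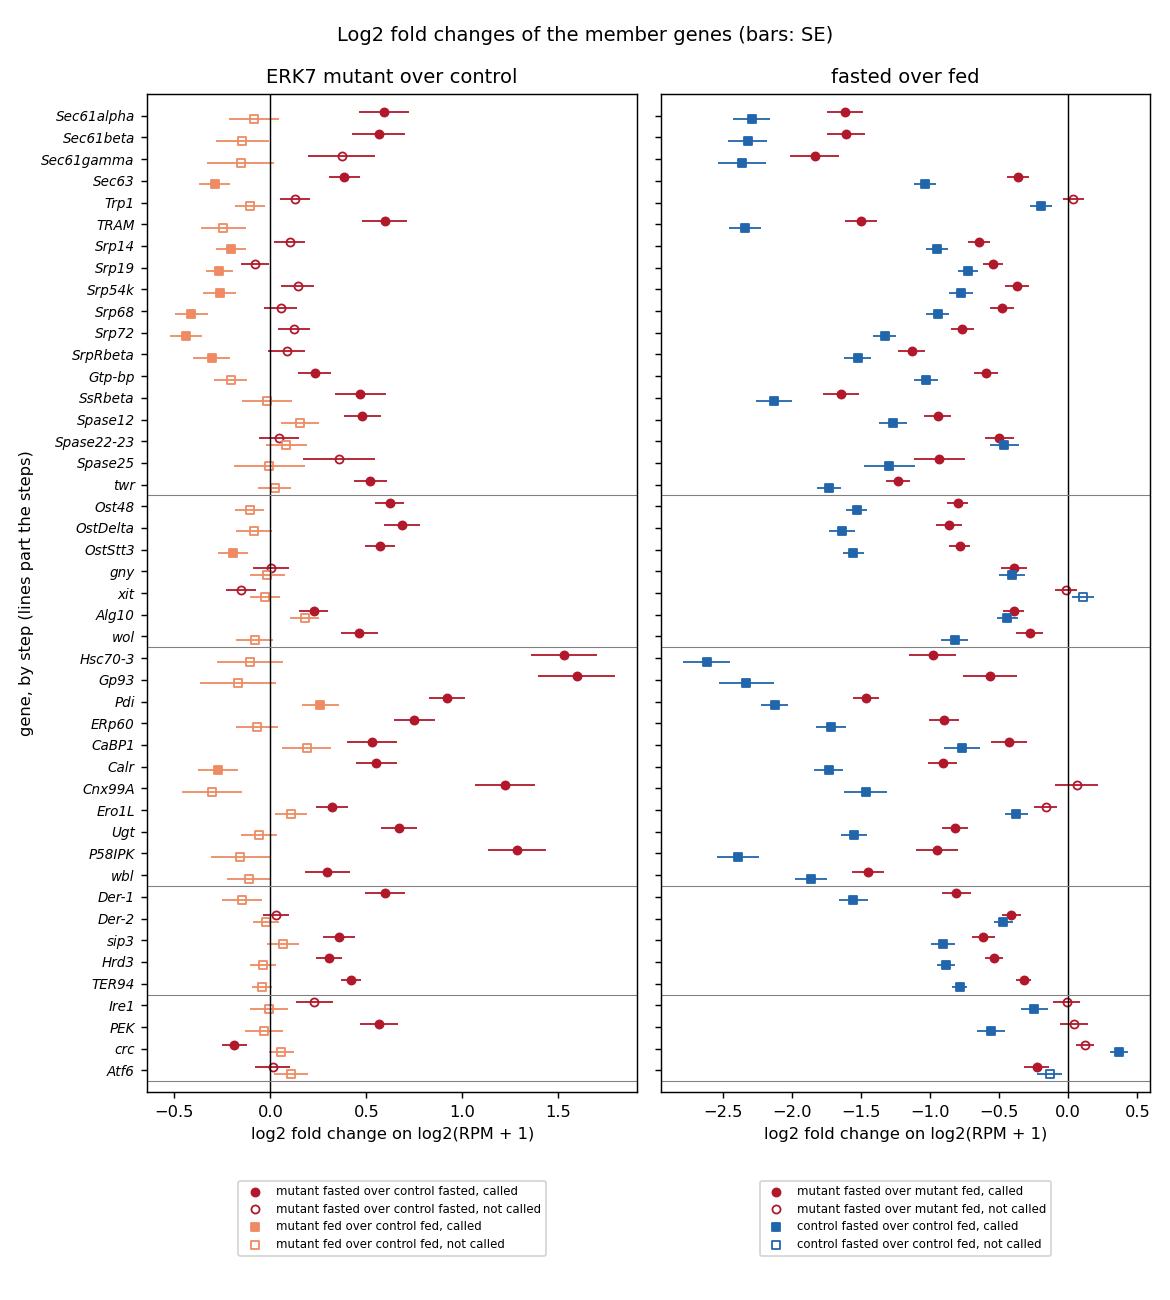
Log2 fold change on log2(RPM + 1) of each gene with its SE (bar), for mutant over control (left panel, fasted and fed larvae) and for fasted over fed (right panel, mutants and controls). Filled symbols are called at an adjusted p under 0.05 in limma, and the 11 folding genes are all filled and right of 0 for mutant fasted over control fasted.

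Summed over the members, the libraries held 7350 to 9155 RPM in mutant fasted and 14286 to 16653 RPM in mutant fed larvae, against 5075 to 6355 RPM in control fasted and 14450 to 16273 RPM in control fed larvae. The members thus made up 0.822% of the scaled library on average in mutant fasted larvae, 1.52% in mutant fed larvae, 0.545% in control fasted larvae and 1.57% in control fed larvae. The folding genes carried most of the difference between the fasted groups, with a mean sum of 3920 ± 545 (SD, n = 4) RPM in mutants and 1873 ± 375 (SD, n = 4) RPM in controls. The sums of the fasted groups did not overlap for glycosylation, folding and degradation. They overlapped for translocation, where the highest control library was replicate 1 (1806 RPM) and the lowest mutant library had 1795 RPM, and for stress signalling.

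**Figure D4:**
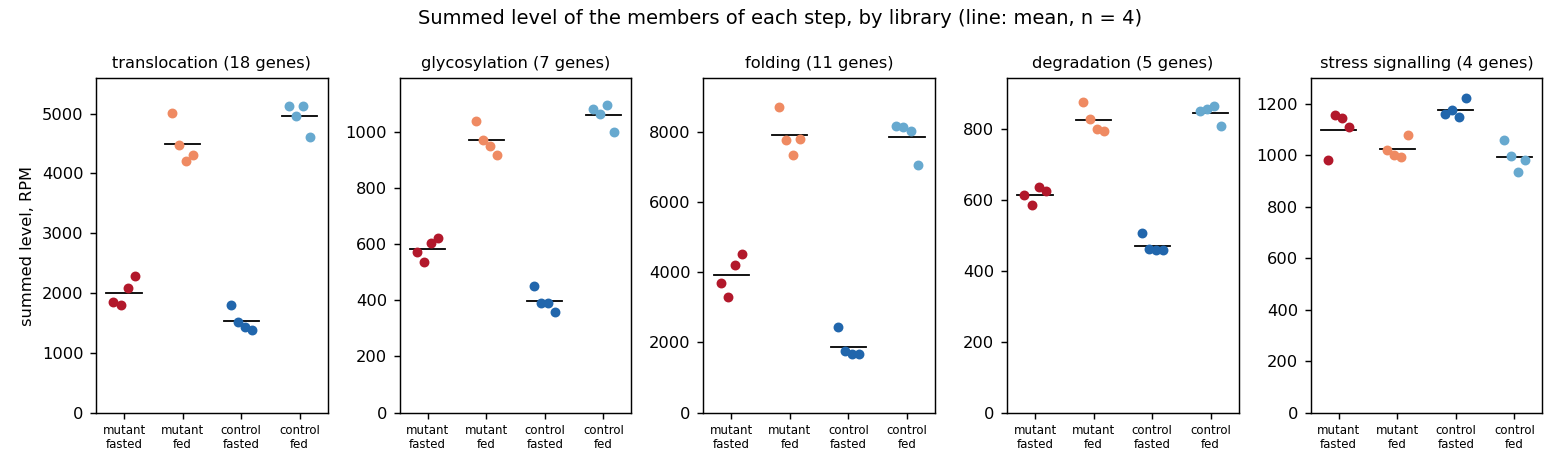
Summed RPM of the members of each step in every library (points, replicates 1 to 4 from left to right) with the mean of 4 libraries (line), each vertical axis starting at 0. In folding, the 4 mutant fasted libraries lie between 3277 and 4508 RPM and the 4 control fasted libraries between 1656 and 2432 RPM, while the fed groups overlap.

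Among fasted larvae, the folding genes had the largest median difference between genotypes of the 5 steps. All 11 were higher in mutant fasted than in control fasted larvae, with a median log2 fold change of 0.75 and a range of 0.30 to 1.59. Upon fasting 9 were lower in mutants (median -0.90) and all 11 in controls (median -1.73), and the difference between the responses was called for 8. Of all genes, 23.8% were called higher in fasted mutants, 25% lower upon fasting in mutants and 32.2% in controls. A positive difference was called for 18.2% of all genes. Without control fasted replicate 1, all 11 stayed higher in fasted mutants with a median of 0.87.

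*Hsc70-3* had 697, 559, 833 and 897 RPM in mutant fasted larvae, against 376, 219.7, 217 and 231 RPM in control fasted larvae. Fed mutants had 1649.8, 1418, 1293 and 1462 RPM, against 1631, 1642, 1575 and 1405 RPM in fed controls. *Hsc70-3* encodes BiP, the Hsp70 chaperone of the ER lumen and its most used marker. All 4 mutant fasted libraries lay above the control fasted ones, and the fed groups overlapped. The mean in fasted mutants was 2.86 times that in fasted controls, with a log2 fold change of 1.53 ± 0.17 (adjusted p = 2.7e-05). Upon fasting it changed by -0.98 ± 0.17 in mutants (adjusted p = 0.00024) and by -2.62 ± 0.17 in controls (adjusted p = 4.8e-09), a difference of 1.64 ± 0.24 (adjusted p = 0.00018). Control fasted replicate 1 stood above the other control fasted libraries, and without it the genotype difference in fasted larvae was 1.72. The annotation places the gene on chromosome X at 11801696-11807117 of the release 6 assembly, on the minus strand.

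*Gp93* had 679, 491, 695 and 855 RPM in mutant fasted larvae, against 355, 205, 182 and 177 RPM in control fasted larvae. Fed mutants had 1127, 975, 904 and 961 RPM, against 1148, 1227, 1113 and 969.6 RPM in fed controls. *Gp93* is the ER member of the Hsp90 family, which matures a narrow set of membrane and secreted proteins. The fasted groups were apart, with mutant replicate 2 the lowest of its group and control replicate 1 the highest of its own. Its log2 fold change in fasted larvae, 1.59 ± 0.20 (adjusted p = 5.9e-05), was the largest among the members, and without control fasted replicate 1 it was 1.82. The fall upon fasting was -0.57 ± 0.20 in mutants (adjusted p = 0.028) and -2.33 ± 0.20 in controls (adjusted p = 7.8e-08), and the difference of 1.76 ± 0.28 was again the largest of the 45 (adjusted p = 0.00032). The fall in mutants lost its call without mutant fasted replicate 2 (adjusted p = 0.097), mutant fed replicate 1 (0.076) or mutant fed replicate 2 (0.05001) and under quantile normalization (0.057). *Gp93* lies on chromosome 3R at 27948711-27952151.

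*P58IPK* had 125, 106, 157 and 167 RPM in mutant fasted larvae, against 77.8, 52.9, 45.6 and 50.7 RPM in control fasted larvae. Fed mutants had 285, 261, 257 and 259 RPM, against 297, 316, 288 and 283 RPM in fed controls. *P58IPK* is the fly counterpart of DNAJC3, a J-domain protein that delivers unfolded chains to BiP. Its mean in fasted mutants was 2.45 times that in fasted controls, with no overlap, while the fed groups overlapped at their edges. The genotype difference in fasted larvae was 1.29 ± 0.15 (adjusted p = 4.1e-05) and the fed difference -0.16 ± 0.15 (adjusted p = 0.41). The fall upon fasting was -0.95 ± 0.15 in mutants and -2.39 ± 0.15 in controls, and these differed by 1.44 ± 0.21 (adjusted p = 0.00019).

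*Pdi* had 1147, 1062, 1258 and 1330.5 RPM in mutant fasted larvae, against 746, 631, 586 and 576 RPM in control fasted larvae. Fed mutants had 3592, 3275, 3051 and 3300.3 RPM, against 2959.6, 2773, 2874 and 2441 RPM in fed controls. *Pdi*, protein disulfide isomerase, forms and rearranges the disulfide bonds of new proteins. It was the sole member higher in mutants in both feeding states, by 0.92 ± 0.10 in fasted larvae (adjusted p = 1.6e-05) and by 0.26 ± 0.10 in fed larvae (adjusted p = 0.034), and neither pair of groups overlapped. The fed call was lost, with adjusted p of 0.0584 to 0.109, when any of the following was left out, mutant fed replicates 1, 2 and 4 and control fed replicates 2 and 4. Upon fasting *Pdi* fell by 1.46 on the log2 scale in mutants and by 2.12 in controls, which differed by 0.66 ± 0.14 (adjusted p = 0.0022).

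*Cnx99A* had 187, 248, 284 and 275 RPM in mutant fasted larvae, against 150.1, 89.0, 87.2 and 103 RPM in control fasted larvae. Fed mutants had 266, 229, 221 and 229 RPM, against 302, 293, 289.6 and 278 RPM in fed controls. *Cnx99A* is calnexin, a membrane lectin that holds glycoproteins while they fold. Upon fasting its change was 0.06 ± 0.16 in mutants (adjusted p = 0.8), and in controls it fell by 1.46 on the log2 scale (adjusted p = 8.9e-07). The mutant fasted libraries spread widely, and their range took in all 4 mutant fed libraries. The difference between the responses was 1.52 ± 0.22 (adjusted p = 0.00015) and the genotype difference in fasted larvae 1.22 ± 0.16 (adjusted p = 7.2e-05). The fed libraries did not overlap between genotypes either, with mutants lower, but the fed difference of -0.30 ± 0.16 was not called (adjusted p = 0.12). *Cnx99A* lies on chromosome 3R at 29315254-29319644.

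**Figure D5:**
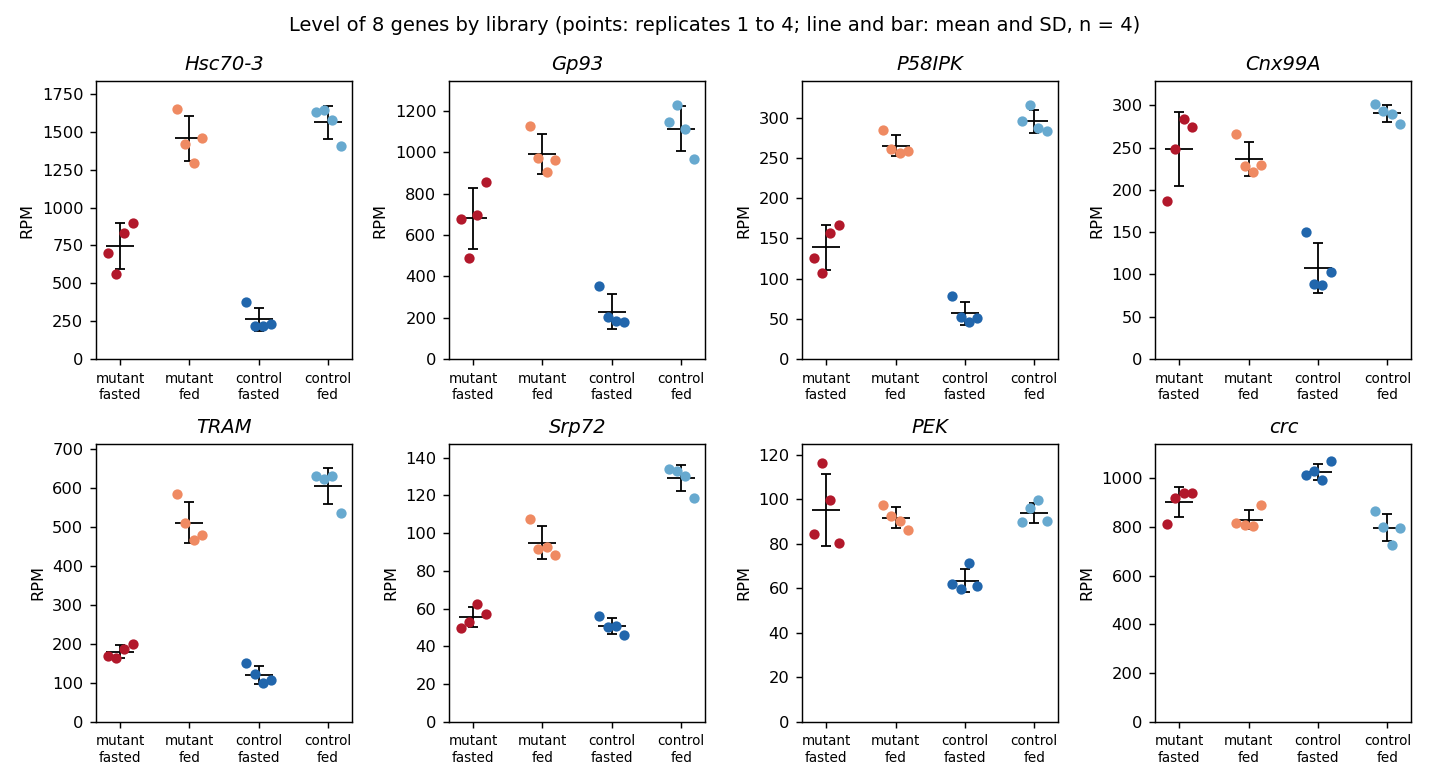
RPM of 8 genes in each library, replicates 1 to 4 from left to right within each group, with the mean and SD of 4 libraries and a vertical axis from 0. Hsc70-3, Gp93 and P58IPK in mutant fasted larvae lie between control fasted and both fed groups, Cnx99A and PEK in mutant fasted larvae overlap the mutant fed libraries, and crc is highest in control fasted larvae.

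The other 6 folding genes were higher in fasted mutants by less. *Calr* (calreticulin, the soluble partner of calnexin) had a log2 fold change of 0.55 ± 0.11 in fasted larvae and -0.27 ± 0.11 in fed larvae (adjusted p = 0.0013 and 0.042). Its fed call was lost, with adjusted p of 0.0546 to 0.104, when any of the following was left out, mutant fed replicates 2, 3 and 4 and control fed replicates 1, 2 and 3, and was also lost after quantile normalization and median centring. *Ugt*, which puts glucose back on unfinished glycoproteins and so returns them to calnexin, was higher by 0.67 ± 0.093 in fasted mutants (adjusted p = 0.00014). *ERp60*, the disulfide isomerase that works with calnexin and calreticulin, was higher by 0.75 ± 0.11 (adjusted p = 0.00018). *Ero1L*, which reoxidizes protein disulfide isomerase, was higher by 0.32 ± 0.082 (adjusted p = 0.0071), and its change upon fasting was not called in mutants (-0.16 ± 0.082, adjusted p = 0.12) and was called in controls (-0.38 ± 0.082, adjusted p = 0.0009). The difference between these *Ero1L* responses, 0.21 ± 0.12, was not called (adjusted p = 0.17). *CaBP1* and *wbl* were measured at low levels, *CaBP1* at 1.70, 1.94, 1.22 and 2.13 RPM in mutant fasted and 0.899, 0.949, 0.709 and 1.02 RPM in control fasted larvae. *CaBP1*, another disulfide isomerase, was higher by 0.53 ± 0.13 (adjusted p = 0.0055) and *wbl*, the fly ERp29, by 0.30 ± 0.12 (adjusted p = 0.0495). The *wbl* call was lost, with adjusted p of 0.0548 to 0.161, when any single library was left out other than mutant fasted replicate 1, mutant fed replicates 1 and 3 and control fasted replicate 1. It was also lost in edgeR (0.056) and DESeq2 (0.075), and both calls were lost after quantile normalization.

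Among glycosylation genes, the 3 oligosaccharyltransferase subunits among the members, *Ost48*, *OstDelta* and *OstStt3*, were all higher in fasted mutants. Of the 4 genes that supply or add the glucose of the lipid-linked sugar tree, 2 were not called there. Of the 7 genes, 5 were higher in fasted mutants than in fasted controls (median 0.46), against 23.8% of all genes. Upon fasting 6 were lower in mutants and 6 in controls, against 25% and 32.2% of all genes. The difference between responses was called for 4, all positive, against 18.2% of all genes called positive.

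*Ost48* had 141, 129, 145 and 154 RPM in mutant fasted larvae, against 101, 92.7, 91.9 and 83.1 RPM in control fasted larvae. Fed mutants had 266, 261, 235 and 232 RPM, against 271, 264, 286 and 249 RPM in fed controls. *Ost48* is a non-catalytic subunit of the transferase. Its fasted groups were apart and its fed groups overlapped. It was higher in fasted mutants by 0.62 ± 0.075 (adjusted p = 4.8e-05), and its fall upon fasting was -0.80 ± 0.075 in mutants against -1.53 ± 0.075 in controls, a difference of 0.73 ± 0.11 (adjusted p = 0.00016).

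*OstDelta* had 103, 107, 122 and 124 RPM in mutant fasted larvae, against 86.9, 68.7, 66.4 and 62.0 RPM in control fasted larvae. Fed mutants had 226, 201, 206 and 199 RPM, against 226, 223, 225 and 209 RPM in fed controls. *OstDelta*, the fly ribophorin II, followed the same order of groups, with control fasted replicate 1 the highest control and still below all mutants. The genotype difference in fasted larvae was 0.68 ± 0.094 (adjusted p = 0.00012) and the difference between the fasting responses 0.77 ± 0.13 (adjusted p = 0.00062).

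*OstStt3* had 213, 203, 238 and 243 RPM in mutant fasted larvae, against 172, 144, 149 and 138 RPM in control fasted larvae. Fed mutants had 415, 378, 384 and 369 RPM, against 453, 439, 459.8 and 419.6 RPM in fed controls. *OstStt3* is the catalytic subunit. It was higher in fasted mutants by 0.57 ± 0.078 (adjusted p = 0.00011) and lower in fed mutants by 0.20 on the log2 scale (adjusted p = 0.047), and in neither state did the groups overlap. The fed call was lost, with adjusted p of 0.0516 to 0.114, when any single library was left out other than mutant fasted replicates 2, 3 and 4, mutant fed replicate 1, control fasted replicates 1 and 4 and control fed replicate 4, and was also lost under both other scalings. The difference between the fasting responses was 0.77 ± 0.11 (adjusted p = 0.00014).

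The 4 glucose genes act in sequence at the ER membrane. The *wol* product, the fly ALG5, makes the lipid-bound glucose that the others use, and it was higher in fasted mutants by 0.46 ± 0.10 (adjusted p = 0.0023) with a difference between responses of 0.54 ± 0.14 (adjusted p = 0.008). The first to add glucose is *gny* (ALG6), whose log2 fold change was 0.0013 in fasted larvae (adjusted p = 0.99). The next is *xit* (ALG8), at -0.15 (adjusted p = 0.12), and *xit* was the sole member that no comparison called. *Alg10* adds the last glucose and was higher in fasted mutants by 0.23 ± 0.075 (adjusted p = 0.026). That call was lost, with adjusted p of 0.0596 to 0.0728, when any of the following was left out, mutant fasted replicates 3 and 4 and control fasted replicates 2, 3 and 4. Upon fasting *gny* and *Alg10* fell in both genotypes, *gny* by 0.39 in mutants and 0.41 in controls and *Alg10* by 0.40 in mutants and 0.44 in controls. The differences were 0.017 ± 0.13 for *gny* and 0.047 ± 0.11 for *Alg10*, with adjusted p of 0.94 and 0.76. Exons of *gny* share bases with another gene of the same strand.

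Translocation genes were all lower in fasted controls than in fed controls. The fall was called for 17 of 18 in mutants (median -0.85), against 25% of all genes, and for 18 of 18 in controls (median -1.28), against 32.2%. In fasted larvae 8 of 18 were higher in mutants (median 0.29), against 23.8% of all genes, and in fed larvae 7 of 18 were lower in mutants (median -0.18), against 26.0% of all genes. The difference between responses was called for 11, against 18.2% of all genes called positive. Those higher in fasted mutants were *Sec61alpha*, *Sec61beta*, *Sec63*, *TRAM*, *Gtp-bp*, *SsRbeta*, *Spase12* and *twr*. Those lower in fed mutants were *Sec63*, *SrpRbeta* and the 5 SRP subunits among the members.

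*TRAM* had 169, 164, 188 and 199 RPM in mutant fasted larvae, against 149, 123, 98.9 and 108 RPM in control fasted larvae. Fed mutants had 584, 511, 468 and 480.3 RPM, against 632, 623, 630.1 and 535 RPM in fed controls. *TRAM* sits beside the Sec61 channel and helps some signal sequences enter it. Its 4 mutant fasted libraries were all above the 4 control fasted libraries. *TRAM* was higher in fasted mutants by 0.60 ± 0.12 (adjusted p = 0.0015), and its fall upon fasting was -1.50 ± 0.12 in mutants and -2.34 ± 0.12 in controls, a difference of 0.84 ± 0.17 (adjusted p = 0.0015). In fed larvae control replicate 4 was lower than the other controls, and the genotype difference of -0.25 ± 0.12 was not called (adjusted p = 0.093). *TRAM* lies on chromosome X at 935232-937822.

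*Sec63* had 193, 213, 237 and 229 RPM in mutant fasted larvae, against 182, 165, 166 and 154 RPM in control fasted larvae. Fed mutants had 306, 264, 274 and 277 RPM, against 372, 343, 349.8 and 307 RPM in fed controls. *Sec63* is a J-domain partner of the channel that recruits BiP. It was higher in fasted mutants by 0.38 ± 0.081 (adjusted p = 0.0023) and lower in fed mutants by 0.29 on the log2 scale (adjusted p = 0.0076), without overlap in either state. Under quantile normalization the fed difference was -0.11 and not called. Its fall upon fasting was -0.36 ± 0.081 in mutants and -1.04 ± 0.081 in controls, which differed by 0.67 ± 0.11 (adjusted p = 0.00051).

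Of the channel itself, *Sec61alpha*, the pore, was higher in fasted mutants by 0.59 ± 0.13 (adjusted p = 0.0033) and *Sec61beta*, a small subunit, by 0.56 ± 0.14 (adjusted p = 0.0057). *Sec61gamma*, the remaining subunit, had a log2 fold change of 0.37 ± 0.17 that was not called (adjusted p = 0.096). It was measured at 3.21, 3.69, 5.29 and 6.48 RPM in mutant fasted and 4.70, 2.69, 2.84 and 3.11 RPM in control fasted larvae. Upon fasting the 3 subunits fell by 1.61 to 1.83 on the log2 scale in mutants and fell by 2.29 to 2.36 in controls, among the deepest falls of the 45. *Trp1*, the fly Sec62, was at 162 to 218 RPM in all libraries and was called in 1 comparison, the fasting response of controls (-0.20 ± 0.079, adjusted p = 0.037). That call was lost, with adjusted p of 0.058 to 0.0983, when any of the following was left out, control fasted replicates 2, 3 and 4 and control fed replicates 1, 2 and 4. *SsRbeta*, a subunit of the translocon-associated complex, was higher in fasted mutants by 0.47 ± 0.13 (adjusted p = 0.011), and the difference between its responses, 0.49 ± 0.18, was not called (adjusted p = 0.056).

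Signal peptidase had 4 measured genes. *twr* had 79.6, 70.2, 84.1 and 98.2 RPM in mutant fasted larvae, against 62.2, 54.7, 54.5 and 57.6 RPM in control fasted larvae. Fed mutants had 211, 192, 181 and 196 RPM, against 199, 189, 194 and 185 RPM in fed controls. The product of *twr* is the catalytic subunit, Sec11 in yeast, and its fasted groups were apart. It was higher in fasted mutants by 0.52 ± 0.086 (adjusted p = 0.00048), its fed difference was 0.022 ± 0.086 (adjusted p = 0.85), and its fasting responses differed by 0.50 ± 0.12 (adjusted p = 0.0069). Upon fasting it changed by -1.23 ± 0.086 in mutants and -1.73 ± 0.086 in controls.

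*Spase12* had 42.3, 34.8, 37.2 and 43.0 RPM in mutant fasted larvae, against 31.1, 26.2, 28.2 and 26.0 RPM in control fasted larvae. Fed mutants had 86.4, 73.6, 64.4 and 82.7 RPM, against 68.4, 66.9, 74.9 and 63.8 RPM in fed controls. *Spase12*, a small accessory subunit, was apart between the fasted groups and overlapped between the fed groups. The genotype difference in fasted larvae was 0.48 ± 0.10 (adjusted p = 0.002), and the difference between fasting responses, 0.32 ± 0.14, was not called (adjusted p = 0.087). *Spase25* had 6.32, 6.28, 8.20 and 10.6 RPM in mutant fasted larvae, against 5.97, 5.43, 6.15 and 5.60 RPM in control fasted larvae. These did not overlap, yet its log2 fold change of 0.36 ± 0.19 was not called (adjusted p = 0.13). *Spase22-23* was at 0.713 to 2.13 RPM over all libraries, and its exons share bases with another gene of the same strand.

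For the SRP, the calls between genotypes lay in fed larvae. None of the 5 SRP subunits among the members was called between fasted mutants and fasted controls, with log2 fold changes of -0.08 to 0.14 in limma. The same held at an unadjusted p under 0.05 in limma and in edgeR, DESeq2 and limma-voom. In limma, 23.8% of all genes were called higher and 20.9% lower in fasted mutants. All 5 subunits were lower in fed mutants than in fed controls, against 26.0% of all genes. After quantile normalization all 5 were still below 0 in fed larvae, but the calls of *Srp14*, *Srp19* and *Srp54k* were lost. The difference between fasting responses was called for 4 of the 5, against 18.2% of all genes called positive. That of *Srp14* (0.31 ± 0.11, adjusted p = 0.048) lost its call when any 1 of 11 libraries was left out (adjusted p of 0.0519 to 0.0945), and that of *SrpRbeta* (0.39 ± 0.14, adjusted p = 0.041), of the SRP receptor, when any 1 of 10 was (0.0544 to 0.0820). *Srp9*, a 6th measured subunit from the list of 42 further genes, had a log2 fold change of 0.11 ± 0.10 in fasted larvae (adjusted p = 0.41), was lower in fed mutants (-0.28 ± 0.10, adjusted p = 0.035), and its difference between responses, 0.39 ± 0.15, was not called (adjusted p = 0.055).

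*Srp72* had 49.8, 52.9, 62.3 and 57.1 RPM in mutant fasted larvae, against 56.3, 50.3, 50.9 and 46.0 RPM in control fasted larvae. Fed mutants had 108, 91.7, 92.6 and 88.3 RPM, against 134, 133, 131 and 119 RPM in fed controls. *Srp72*, with *Srp68*, forms the large heterodimer of the particle. Its fasted groups overlapped and its fed groups were apart, with all 4 mutants below all 4 controls. The fed difference was -0.44 ± 0.085 (adjusted p = 0.00052), the fasted difference 0.12 ± 0.085 (adjusted p = 0.25), and the responses to fasting differed by 0.56 ± 0.12 (adjusted p = 0.0027). The fed call held under every scaling tried, at -0.30 after quantile normalization.

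*Srp68* had 86.9, 85.9, 86.6 and 96.7 RPM in mutant fasted larvae, against 100.3, 80.1, 87.6 and 76.6 RPM in control fasted larvae. Fed mutants had 141, 114, 125 and 119 RPM, against 171, 166, 173 and 155 RPM in fed controls. *Srp68* gave the same picture, with a fed difference of -0.41 ± 0.086 (adjusted p = 0.0011) and a fasted difference of 0.053 ± 0.086 (adjusted p = 0.64). Its responses to fasting differed by 0.46 ± 0.12 (adjusted p = 0.01), and its fed call also held under every scaling tried.

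*Srp19* had 28.7, 28.0, 25.8 and 31.2 RPM in mutant fasted larvae, against 32.0, 31.9, 27.4 and 29.2 RPM in control fasted larvae. Fed mutants had 46.2, 41.6, 39.4 and 40.1 RPM, against 52.7, 50.0, 49.8 and 49.2 RPM in fed controls. *Srp19* helps to assemble the particle on its RNA. It was lower in fed mutants by 0.27 on the log2 scale (adjusted p = 0.0063), without overlap, and its fasted libraries overlapped (-0.081 ± 0.072, adjusted p = 0.38). Of the 5 member subunits it was the one whose difference between fasting responses, 0.18 ± 0.10, was not called (adjusted p = 0.17).

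*Srp54k*, which binds the signal sequence, and *Srp14*, of the part that slows elongation, had fed differences of -0.26 ± 0.086 and -0.21 ± 0.079 (adjusted p = 0.018 and 0.04). The *Srp54k* call was lost, with adjusted p of 0.0523 to 0.0576, when any of the following was left out, mutant fed replicates 2 and 3 and control fed replicate 1. The *Srp14* call was lost, with adjusted p of 0.0645 to 0.123, when any of the following was left out, mutant fed replicates 3 and 4 and control fed replicates 1, 2 and 3. After median centring the fed calls of *Srp54k* and *Srp14* were lost too (adjusted p = 0.0575 and 0.112). Of the receptor, *SrpRbeta* was lower in fed mutants by 0.30 on the log2 scale (adjusted p = 0.016, 0.0505 without mutant fed replicate 3) and *Gtp-bp* was not called there (-0.21 ± 0.086, adjusted p = 0.056). The fed call of *SrpRbeta* was also lost after quantile normalization (-0.17, adjusted p = 0.117). In fasted larvae *Gtp-bp* was higher in mutants by 0.23 ± 0.086 (adjusted p = 0.042) and *SrpRbeta* was not called (0.086 ± 0.10, adjusted p = 0.49). The *Gtp-bp* call was lost, with adjusted p of 0.0502 to 0.129, when any of the following was left out, mutant fasted replicates 2, 3 and 4, mutant fed replicate 2, control fasted replicates 2, 3 and 4 and control fed replicate 2. *Srp14* and *Srp72* lie close together on chromosome 3R, at 20580115-20580764 and 20588711-20591040, and *Srp19* and *Sec63* on 3L, at 7347310-7348034 and 7360561-7364366.

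Degradation genes had the directions of the folding genes, with smaller medians. All 5 were lower upon fasting in mutants (median -0.54) and in controls (median -0.88), where 25% and 32.2% of all genes were called lower. In fasted mutants 4 of 5 were higher than in fasted controls (median 0.36), against 23.8% of all genes. None was called in fed larvae in limma, edgeR, DESeq2 or limma-voom, nor at an unadjusted p under 0.05 in limma. In limma, 25.6% of all genes were called higher and 26.0% lower in fed mutants. The fed difference of the 5 degradation genes was between -0.15 and 0.07.

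*TER94* had 412, 396, 421 and 389 RPM in mutant fasted larvae, against 318, 297, 300.1 and 293 RPM in control fasted larvae. Fed mutants had 537, 508, 494 and 487 RPM, against 521, 527, 540.4 and 499 RPM in fed controls. *TER94* is the fly p97, the ATPase that pulls proteins out of the ER membrane for the proteasome. Its libraries were tight within each group and the fasted groups were well apart. The genotype difference in fasted larvae was 0.42 ± 0.052 (adjusted p = 6e-05), and the fall upon fasting was -0.32 ± 0.052 in mutants and -0.79 ± 0.052 in controls, a difference of 0.46 ± 0.074 (adjusted p = 0.00033). In fed larvae the difference was -0.042 ± 0.052 as deposited (adjusted p = 0.52) and 0.14 after quantile normalization, where it was called.

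*Der-1* had 33.5, 30.3, 39.4 and 42.4 RPM in mutant fasted larvae, against 26.6, 23.3, 20.5 and 24.1 RPM in control fasted larvae. Fed mutants had 72.2, 64.8, 58.9 and 61.2 RPM, against 72.2, 74.7, 71.6 and 65.9 RPM in fed controls. *Der-1* is a Derlin, a membrane protein of the channel through which misfolded proteins leave the ER. It was higher in fasted mutants by 0.60 ± 0.10 (adjusted p = 0.00068), without overlap, and its fasting responses differed by 0.74 ± 0.15 (adjusted p = 0.0016). Its paralogue *Der-2* had a fasted difference of 0.031 ± 0.068 (adjusted p = 0.74) and fell upon fasting by 0.41 in mutants and 0.47 in controls. The ubiquitin ligase *sip3*, the fly Hrd1, and its partner *Hrd3* were higher in fasted mutants by 0.36 ± 0.084 and 0.31 ± 0.066 (adjusted p = 0.0044 and 0.0027). The difference between responses was called for *Hrd3* (0.34 ± 0.093, adjusted p = 0.012) and not for *sip3* (0.29 ± 0.12, adjusted p = 0.073).

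The 4 stress signalling genes did not move as a group. In fasted larvae *PEK* was higher in mutants, *crc* was lower, and *Ire1* and *Atf6* were not called.

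*PEK* had 84.5, 116, 99.8 and 80.6 RPM in mutant fasted larvae, against 62.1, 59.8, 71.2 and 61.1 RPM in control fasted larvae. Fed mutants had 97.5, 92.8, 90.2 and 86.4 RPM, against 89.9, 96.0, 99.6 and 90.2 RPM in fed controls. *PEK* is the kinase PERK, which phosphorylates the initiation factor eIF2alpha when unfolded chains accumulate. Upon fasting its change was 0.041 ± 0.10 in mutants (adjusted p = 0.78), and in controls it fell by 0.56 on the log2 scale (adjusted p = 0.00015). The fasted groups were apart, with a genotype difference of 0.57 ± 0.10 (adjusted p = 0.0007), and the responses differed by 0.60 ± 0.14 (adjusted p = 0.0049). The mutant fasted libraries spread from below to above the mutant fed ones. *PEK* lies on chromosome 3R at 5458563-5464753.

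*Ire1* had 69.7, 100.4, 88.3 and 70.0 RPM in mutant fasted larvae, against 70.3, 68.4, 65.7 and 72.0 RPM in control fasted larvae. Fed mutants had 84.4, 80.1, 81.5 and 80.9 RPM, against 81.7, 82.7, 88.2 and 76.1 RPM in fed controls. *Ire1*, the other kinase sensor, which also cuts RNA, showed the same high libraries as *PEK*, mutant fasted replicates 2 and 3. Its genotype difference in fasted larvae was 0.23 ± 0.10 (adjusted p = 0.069), with overlap. The fall upon fasting in controls was small, -0.25 ± 0.10 (adjusted p = 0.037), and that call was lost, with adjusted p of 0.0535 to 0.0957, when any of the following was left out, control fasted replicates 1, 2 and 3 and control fed replicates 1, 2 and 3.

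*crc* had 811, 919, 938 and 938 RPM in mutant fasted larvae, against 1011, 1028, 994 and 1069 RPM in control fasted larvae. Fed mutants had 815, 808, 803 and 888 RPM, against 865, 801, 726 and 795 RPM in fed controls. The *crc* product, the fly ATF4, is the transcription factor whose translation rises when eIF2alpha is phosphorylated, so that its RNA level need not follow its protein. Upon fasting its change in mutants was 0.12 ± 0.066 (adjusted p = 0.15). In controls *crc* was the sole member higher upon fasting, by 0.37 ± 0.066 (adjusted p = 0.00019), with all fasted libraries above all fed ones, and the difference between responses, -0.24 ± 0.094, was not called (adjusted p = 0.059). Fasted mutants were below fasted controls by 0.19 on the log2 scale (adjusted p = 0.033), without overlap. That call was lost without mutant fasted replicate 1 (adjusted p = 0.104), control fasted replicate 2 (0.0692) or control fasted replicate 4 (0.0786). It was also lost after both other scalings, with a difference of -0.038 after quantile normalization, and in a fit of the 8 fasted libraries alone. Exons of *crc* share bases with another gene of the same strand.

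*Atf6*, a membrane-bound transcription factor released by proteolysis, was at 15.8 to 22.6 RPM in all libraries. It was called in 1 comparison, a fall of 0.23 on the log2 scale upon fasting in mutants (adjusted p = 0.047). That call was lost, with adjusted p of 0.05003 to 0.136, when any single library was left out other than mutant fasted replicate 4, mutant fed replicates 2 and 3, control fasted replicate 4 and control fed replicate 2. Its exons share bases with 2 other genes of the same strand.

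Per kb of exon, the levels of the members spanned a wide range. In control fed larvae *Sec61beta*, *Sec61alpha* and *SsRbeta* had the highest mean level, at 700.4, 694 and 684 RPM per kb, followed by *ERp60* at 469, *Hsc70-3* at 436 and *Calr* at 413. In mutant fasted larvae *crc* was highest, at 263 RPM per kb, before *ERp60* at 240 and *Gp93* at 239, and in control fasted larvae *crc* was highest as well, at 299.6 RPM per kb. *Pdi* and *TER94* have no exon length here and are not ranked.

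Another 42 genes of the same steps were listed for comparison and all were measured. This list too was chosen with earlier results of these data known, so its counts are no independent support. Among fasted larvae 17 of 42 were higher in mutants and 3 were lower (23.8% and 20.9% of all genes), with a median log2 fold change of 0.10. Among fed larvae 4 were higher and 9 lower, shares below those of all genes (25.6% and 26.0%). Upon fasting 27 were lower and 7 higher in mutants (25% and 23.7% of all genes), and 30 were lower and 6 higher in controls (32.2% and 37.5% of all genes). The difference between responses was positive for 11 and negative for 2 (18.2% and 13.7% of all genes). By step, the genes higher in fasted mutants were 3 of 4 in translocation, 2 of 12 in glycosylation, 7 of 11 in folding, 4 of 9 in degradation and 1 of 6 in stress signalling. Of the folding genes, *CG2918*, which the list gives as *Grp170*, the exchange factor of BiP, was higher in fasted mutants by 0.74 ± 0.16 (adjusted p = 0.0033) and its responses differed by 1.04 ± 0.23 (adjusted p = 0.0038). Both subunits of glucosidase II, which trims the sugar tree, were higher, *GCS2alpha* by 0.39 ± 0.079 (adjusted p = 0.002) and *GCS2beta* by 0.44 ± 0.10 (adjusted p = 0.0033), whereas glucosidase I (*GCS1*) was not called (-0.17 ± 0.067, adjusted p = 0.053). The oligosaccharyltransferase subunits *CG33303* and *Ostgamma* were higher by 0.62 ± 0.10 and 0.51 ± 0.083 (adjusted p = 0.0004 and 0.00042), as were the 3 subunits above. They were the 2 glycosylation genes higher in this list. *Manf*, an ER-resident stress-responsive secreted factor, was higher by 0.69 ± 0.16 (adjusted p = 0.005).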

How the data were processed

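RNA of 16 libraries, 4 in each of 4 groups given by the labels, was sequenced by the authors on an Illumina NextSeq500. Per their methods and processing notes, reads were trimmed with Trimmomatic, mapped with TopHat 2.1.0 to the FlyBase release 6 genome and counted strand-specifically on exons with HTSeq 2.7.6, and genes with low counts were removed. The deposited signal values are linear and were made by the authors from counts by scaling each library to its TMM effective size. They are called RPM here, and 100% of them were whole multiples of 1 read (within the rounding of the table), so that reads were recovered. The same table holds the authors' mean levels, log2 fold changes, t, F and p-values, which were not used.

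The test was limma 3.58.1 (lmFit and eBayes, R 4.3.3) on log2(RPM + 1), a pseudocount of 1, with 4 group means over 16 libraries, no further filter and Benjamini-Hochberg adjustment at 0.05 over 10459 genes. It was tested on simulated data. Sampling alone does not account for replicate differences, as chi-square over degrees of freedom was 12.2 to 51.1 for the 24 replicate pairs. Alternatives were a pseudocount of 0.1, quantile normalization, median centring, removal of genes under the 25th percentile, edgeR 4.0.16, DESeq2 1.42.0 and limma-voom on recovered reads, a variance trend with robust eBayes, a fit restricted to the groups compared, a block for the replicate number, stricter thresholds and each library left out.

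The members, the 42 further genes and the marker lists were chosen with earlier results of these data known. *Srp54* was removed from the 42 because it is the splicing factor of that name. Values in every library are given for the members with the smallest adjusted p in fasted larvae of each step and for the 3 with the smallest adjusted p in every other comparison, 20 genes in all. Other members are given by fold changes or counts. Positions come from an Ensembl annotation of the release 6 assembly, which held 43 of the 45 members, without *Pdi* and *TER94*. Promoter motifs and protein ends were not analysed here.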

Additional observations from a re-analysis of the deposited data

Results flagged for a closer look

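With 4 libraries a group, 12 of 104 groups tested over the 20 genes and the summed levels had a library standing apart from the other 3 (Dixon's ratio above its 95% critical value). Chance gives about 1 in 20 for independent groups. These groups were not independent, because the sums contain the genes and the same library can stand apart in several, so the count cannot be compared with that share. Control fasted replicate 1 was high for *Hsc70-3* (376 RPM, others 217 to 231) and *Gp93* (355 RPM, others 177 to 205). It was also high in the sums of folding genes (2432 RPM, others 1656 to 1740.2), degradation genes (507 RPM, others 459.6 to 460.8) and all members (6355 RPM, others 5075 to 5287). This library lay nearest to the mutants in the second principal component and had the highest sum of testis markers among controls (145 RPM), and the part of either in these values was not tested. Control fed replicate 4 was low for *TRAM* (535 RPM), for the sum of folding genes (7044 RPM) and for all members (14450 RPM).

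Single libraries also stood apart for *P58IPK* (mutant fed replicate 1, 285 RPM), *crc* (mutant fasted replicate 1, 811 RPM, and mutant fed replicate 4, 888 RPM) and *Srp68* (mutant fasted replicate 4, 96.7 RPM).

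The fasting response of mutants minus that of controls was called in limma for 16 of the 20 genes given by library, each time above 0. These genes were chosen for a small adjusted p, in part in this same comparison, so this count is no share of the members. Among all 45 members the difference was called positive for 27, where 18.2% of all genes were called positive and 13.7% negative. In log2 units it was 1.76 for *Gp93*, 1.64 for *Hsc70-3*, 1.52 for *Cnx99A* and 1.44 for *P58IPK*. It was 0.84 for *TRAM*, 0.77 for *OstStt3*, 0.77 for *OstDelta*, 0.74 for *Der-1* and 0.73 for *Ost48*. For *Sec63* it was 0.67, for *Pdi* 0.66, for *PEK* 0.60, for *Srp72* 0.56, for *twr* 0.50, for *Srp68* 0.46 and for *TER94* 0.46.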

How the results depend on the processing

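The depth of 16482553 to 20601418 reads limits *CaBP1* and *Spase22-23*, at a few RPM, more than the other members. No called member changed sign under any alternative run. Over leaving out each library in turn, 26 to 31 members were higher in fasted mutants than in fasted controls, 35 to 38 were lower upon fasting in mutants and 40 to 42 in controls, and 25 to 31 had a called positive difference between responses. The ranges were 0 to 1 for members lower in fasted mutants, 0 to 2 and 4 to 12 for members higher and lower in fed mutants, 0 to 1 for members higher upon fasting in mutants and 0 to 1 for a called negative difference. In fed mutants, 12 members were lower without control fasted replicate 1 and 4 without mutant fed replicate 3.

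The single member lower in fasted mutants, *crc*, was not called (0 members) under quantile normalization, median centring, a fit of only the libraries compared, an adjusted p under 0.01 or a log2 fold change minimum of 0.5. That minimum left 18 members higher in fasted mutants, 0 higher and 0 lower in fed mutants and 0 higher upon fasting in controls. In fed mutants, quantile normalization gave 6 higher and 3 lower with a median of 0.045, median centring 2 higher and 5 lower, limma-voom 2 higher, and the 0.01 threshold 0 higher and 4 lower. Of the 10 members called in fed larvae, 3 were called the same way under quantile normalization and 10 with edgeR. Quantile normalization also gave 1 member higher upon fasting in mutants and a median difference between responses of 0.36. A negative difference was called for 1 member under median centring and 1 after removal of low genes. The causes were not tested. The fit of only the libraries compared could not be run for the difference between responses.

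Among uncalled values of the 20 genes, the fed difference changed sign under quantile normalization for *Hsc70-3* (0.24), *P58IPK* (0.037), *Gp93* (0.099), *Ost48* (0.069), *OstDelta* (0.072), *TER94* (0.14), *PEK* (0.083) and *Ire1* (0.12), under median centring for *TER94* (0.0078), *PEK* (0.016) and *Ire1* (0.044), and in DESeq2 for *twr* (-0.0079). Over single libraries left out it ran over 0 for *twr* (-0.016 to 0.057) and *Ire1* (-0.041 to 0.028). The change upon fasting in mutants changed sign for *Ire1* under quantile normalization (0.00084), in edgeR (0.0066) and in DESeq2 (0.0078), and over libraries left out it ran from -0.11 to 0.062 for *Ire1*, -0.058 to 0.12 for *PEK* and -0.010 to 0.19 for *Cnx99A*.

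Replicate numbers did not pair the libraries. The correlation of the deviations of same-numbered libraries was -0.32 to 0.29 over 24 pairs and above 0.1 for 6, and a library matched its own number best in 11 of 48 cases. With the replicate number as a block, 28 members were higher and 1 lower in fasted mutants, 1 higher and 8 lower in fed mutants, 38 lower upon fasting in mutants and 42 in controls, and the difference was called for 26. The calls that changed were *wbl* (adjusted p = 0.058) in fasted larvae, *Srp14* (0.057) and *Calr* (0.052) in fed larvae, and the *Srp14* difference (0.068).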

Other observations

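In the list of 42 further genes, the 2 with a called negative difference between fasting responses were *Thor* and *Ubc6*, named here after their values were seen. *Thor* encodes 4E-BP, the translation inhibitor that *crc* and the transcription factor FoxO activate. It was higher upon fasting by 2.79 ± 0.23 in mutants (adjusted p = 2e-07) and by 4.71 ± 0.23 in controls (adjusted p = 2.8e-10), a difference of -1.92 ± 0.33 (adjusted p = 0.00055). Its mean was 390.4 RPM in mutant fasted and 56.0 RPM in mutant fed larvae, against 500.2 RPM in control fasted and 18.3 RPM in control fed larvae. *Thor* was thus higher in fed mutants than in fed controls, by 1.52 ± 0.23 (adjusted p = 7.9e-05), and its difference in fasted larvae, -0.40 ± 0.23, was not called (adjusted p = 0.17).

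*CrebA*, a transcription factor that raises secretory pathway genes in Drosophila, fell upon fasting in both genotypes, with changes of -0.96 ± 0.091 in mutants (adjusted p = 7.5e-07) and -1.22 ± 0.091 in controls (adjusted p = 1.7e-08). Between genotypes it was not called, neither in fasted larvae (0.19 ± 0.091, adjusted p = 0.1) nor in fed larvae (-0.08 ± 0.091, adjusted p = 0.48).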
